A study of Mus musculus with 20 samples.

Results

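Small leucine-rich proteoglycans are secreted matrix proteins built around a curved stack of leucine-rich repeats. The genes described here are 10 members of the family, chosen by their symbol in the deposited table: Dcn (decorin), Bgn (biglycan), Lum (lumican), Fmod (fibromodulin), Ogn (osteoglycin, also called mimecan), Prelp, Omd (osteomodulin), Podn (podocan), Aspn (asporin) and Kera (keratocan). All 10 were found among the 54304 genes of the table, and 9 of them passed the filter on low values and were among the 17435 genes tested. The remaining one, Kera, a keratan sulfate proteoglycan of the cornea, was listed at 0 in all 20 libraries, which in this table stands for 1 CPM (the read count scaled to a fixed library total) or less.

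In connective tissue these proteins bind collagen fibrils and set how fibrils fuse, space and thicken. Decorin and biglycan carry chondroitin or dermatan sulfate chains, lumican, fibromodulin, keratocan and osteomodulin carry keratan sulfate, and asporin has no such chain. Several also act as signals: decorin binds TGF-beta and growth factor receptors, and soluble biglycan binds the toll-like receptors TLR2 and TLR4. In white fat they are made mainly by stromal cells of the fibroblast lineage and form part of the matrix that thickens in obesity.

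RNA was sequenced from PDGFRβ-positive stromal cells of the gonadal white fat of male mice, aged 8 weeks in the labels, that were kept at 30 °C and fed for 1 month with chow in which fat supplied 60% of calories. The 4 groups of 5 libraries were control APCs, APCs labelled Mural-Zfp423 transgenic, control FIPs and FIPs labelled Mural-Zfp423 transgenic. FIPs (fibro-inflammatory progenitors) were sorted as LY6C-positive, APCs (adipogenic precursor cells) as negative for both LY6C and CD9, and CD45-positive and CD31-positive cells were sorted away from both. Each library pooled RNA of 2 mice out of 10 per genotype, so libraries of the 2 cell types must share mice, though the labels do not say which. The Mural-Zfp423 line is named for Zfp423 in mural cells, the contractile cells around small vessels. What drives the transgene, how it is induced and the strain were not given in the sources used here, which limits how far the line can be described as a model. The labels do not say that libraries came from separate sorts, so p-values measure the spread between these pools.

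At the estimated depth 1 CPM corresponded to 6.6 to 8.5 reads per library, and between 15972 and 17282 genes exceeded it. Zfp423 stood at 5.53 ± 0.04 log2 CPM in FIPs labelled transgenic and 5.47 ± 0.12 in control FIPs, and at 4.70 ± 0.27 and 4.97 ± 0.17 in the corresponding APCs (mean ± SD, n = 5). It did not pass between genotypes in either population (limma adjusted p = 0.933 and 0.108), so it does not check the genotype labels, and those libraries are called labelled transgenic. Of 6 genes for the surface proteins of the gates, Ly6c1 (1.71 log2 units), Ly6c2 (2.25) and Cd9 (1.54) were higher in control FIPs than in control APCs. Pdgfrb (8.94 against 9.38 log2 CPM) and Pecam1, which encodes CD31 (5.98 against 6.61), were lower, and Ptprc, which encodes CD45 (4.21 against 4.69), did not pass. Transcripts of both genes that mark the removed cells were thus present in both populations. Of 9 markers of interstitial progenitors 9 were higher in control FIPs, beside 19.6% of all tested genes. That list was chosen with earlier results of these data known, so it is no independent check of the sort. No label gives a sorting or sequencing batch. Replicate 1 of the control APCs and replicate 1 of the APCs labelled transgenic were the highest of their groups for Fmod. The control one was also the highest of its group for Omd, Ogn, Dcn, Podn and Prelp and the lowest for Aspn and Bgn, and the other was the lowest of its group for Podn and Prelp. Both lay at an end of their groups for these genes, so some results they touch are also given without them. Dixon's test for an outlying value (critical value 0.71) marked 0 of 36 sets, each being 1 tested member in 1 group. Replicate 5 of the APCs labelled transgenic also lay at an end, as the highest of its group for Dcn, Bgn, Lum, Ogn, Prelp, Podn and Aspn. Leaving out replicate 1 of both APC groups moved the genes called between genotypes from 1396 to 3534 in APCs and from 65 to 126 in FIPs.

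The 10 genes lie at 5 places in the mouse genome (GRCm38 coordinates, GENCODE M21), and 8 of them lie in clusters. Dcn (97479609 to 97518143), Lum (97565128 to 97572703) and Kera (97606879 to 97613692) follow each other within 134.1 kb of chromosome 10, all on the plus strand. Aspn (49544443 to 49567565), Omd (49582462 to 49592822) and Ogn (49608046 to 49624501) sit within 80.1 kb of chromosome 13. Prelp (133910304 to 133921414, minus strand) and Fmod (134037254 to 134048277, plus strand) lie within 138.0 kb of chromosome 1. Podn (108014791 to 108096445, minus strand) is on chromosome 4 and Bgn (73483602 to 73495933) on chromosome X. The chromosome 13 genes lie inside the gene of the centromere protein Cenpp on the opposite strand. Its exons share 7 bases with Aspn and none with Omd or Ogn. Prelp shares 350 exonic bases (9.68% of its exons) with the antisense gene Gm15851, which was listed at 0 in all 20 libraries. The labels do not say whether counting used the strand, so reads over shared bases cannot be assigned to a strand.

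RefSeq windows of the 250 bases before the start site were at hand for 8 of the 10 genes. Those of 2 genes that were lower in FIPs (Fmod and Prelp) and 2 that were higher (Aspn and Omd) are printed because their levels differ in opposite directions between the sorted populations. Capitals mark matches, on either strand, to any of 6 motifs. These are the TATA box with the letters TATAAA, the box named CCAAT, the motif of Sp1-like factors read as GGGCGG, the AP-1 site read as TGANTCA, the RUNX site read as TGTGGT and the palindrome bound by EBF factors. All are GRCm38.p6 and read 5′ to 3′ on the strand of the gene.
Fmod, chr1:134037004-134037253, plus strand: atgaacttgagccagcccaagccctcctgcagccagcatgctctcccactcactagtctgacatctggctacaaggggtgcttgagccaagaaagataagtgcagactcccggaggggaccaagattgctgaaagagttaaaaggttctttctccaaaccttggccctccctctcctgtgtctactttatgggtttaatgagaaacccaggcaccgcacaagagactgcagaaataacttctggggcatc
Prelp, chr1:133921402-133921651, minus strand: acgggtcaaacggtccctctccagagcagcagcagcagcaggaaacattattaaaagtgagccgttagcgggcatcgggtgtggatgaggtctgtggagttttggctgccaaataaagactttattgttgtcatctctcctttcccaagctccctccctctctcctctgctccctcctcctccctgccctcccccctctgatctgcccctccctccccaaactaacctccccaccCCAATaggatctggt
Aspn, chr13:49544193-49544442, plus strand: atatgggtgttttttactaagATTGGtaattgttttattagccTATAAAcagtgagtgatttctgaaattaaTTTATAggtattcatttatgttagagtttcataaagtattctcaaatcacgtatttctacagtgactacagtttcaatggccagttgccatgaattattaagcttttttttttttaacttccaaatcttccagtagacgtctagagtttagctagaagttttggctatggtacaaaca
Omd, chr13:49582212-49582461, plus strand: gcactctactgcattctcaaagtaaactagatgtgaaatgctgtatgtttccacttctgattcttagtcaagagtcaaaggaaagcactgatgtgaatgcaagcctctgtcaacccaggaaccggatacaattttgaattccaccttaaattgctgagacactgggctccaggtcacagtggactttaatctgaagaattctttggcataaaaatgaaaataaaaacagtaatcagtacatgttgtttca

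The windows of Aspn (30.0% G and C) and Omd (38.4%) were poorer in G and C than the median window of all genes (52.4%), while those of Fmod (51.2%) and Prelp (55.6%) lay near it. Windows of Podn, also lower in FIPs, were richer (64.0% and 78.0%), as was that of Bgn (64.4%), which did not pass. The richer window of Podn and that of Bgn held matches to the Sp1-like motif. Aspn held 2 matches to the TATA box, at 207 to 202 and 178 to 173 bases before its start, and 1 to the CCAAT box. The window of Ogn, which did not pass between FIPs and APCs, was also poor in G and C (42.0%). It held overlapping TATA box matches at 229 to 224 and 227 to 222 bases. The undetected Kera had 42.4% G and C, so these traits were not particular to members higher in FIPs. A TATA box match occurs in 12.37% of the 32851 windows, a CCAAT match in 33.85%, the Sp1-like motif in 32.74%, AP-1 in 6.75%, RUNX in 14.05% and EBF in 0.78%. Prelp held a CCAAT match 15 to 11 bases before its RefSeq start. That window starts at 133921402, inside the GENCODE gene, which reaches to 133921414, so the match spans the GENCODE start. Fmod and Omd held none of the 6 motifs, which says only that these letters are not in these windows.

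Per kilobase of annotated exon, the scale used here to compare genes with one another, the family is described in a high, a middle and a low tier. In every group Prelp, Lum and Ogn were high, Dcn, Bgn, Aspn and Podn in the middle, and Fmod and Omd low. Members of 1 tier could lie further apart than neighbouring tiers. In control APCs Prelp stood highest at 7.24 ± 0.04 log2 CPM per kb (n = 5), with Lum (7.10 ± 0.03) and Ogn (6.99 ± 0.19) next, and the ranges of Lum and Ogn overlapped. Dcn (6.42 ± 0.05), Bgn (6.35 ± 0.04), Aspn (5.97 ± 0.18) and Podn (5.96 ± 0.03) followed; the first pair overlapped with each other, and so did the second. Fmod (4.49 ± 0.45) and Omd (1.39 ± 0.48) were lowest and overlapped with no other member. Bgn (6.099 kb) and Dcn (5.838 kb) had the longest annotated exons of the family. Before division by length, Dcn (8.97 log2 CPM) and Bgn (8.96) stood above Lum (8.39) and Ogn (8.35) in these APCs. The place of Dcn and Bgn in the middle tier thus depends on the annotated lengths.

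In control FIPs the order changed at both ends of the upper tier. Lum (7.16 ± 0.09) and Ogn (7.04 ± 0.08) came first, Prelp next (6.90 ± 0.06), and the range of Prelp overlapped with that of Ogn. Aspn (6.50 ± 0.13) stood next, ahead of Bgn and Dcn, and overlapped in range with Bgn (6.44 ± 0.08). Podn (5.57 ± 0.05) lay below Dcn (6.3 ± 0.1) without overlap. Fmod stood at 3.21 ± 0.18 and Omd stood at 2.27 ± 0.19, so the gap between the lowest pair was smaller than in APCs. FIPs labelled transgenic kept the order of the control FIPs. As a share of the summed CPM per kb of the 10 genes, Prelp held 20.6 ± 0.31% in control APCs and 16.8 ± 0.294% in control FIPs, and Aspn 8.62 ± 1.15% and 12.7 ± 0.838%. Summed without regard to length, the 10 genes took 2626 to 2835 CPM of a control APC library and 2460 to 2791 CPM of a control FIP library. With the transgenic label the sums ran from 2711 to 3082 CPM (APCs) and from 2448 to 2650 CPM (FIPs). Exon lengths are those of the union of annotated exons, so a member that uses a short isoform is understated.

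**Figure D1:**
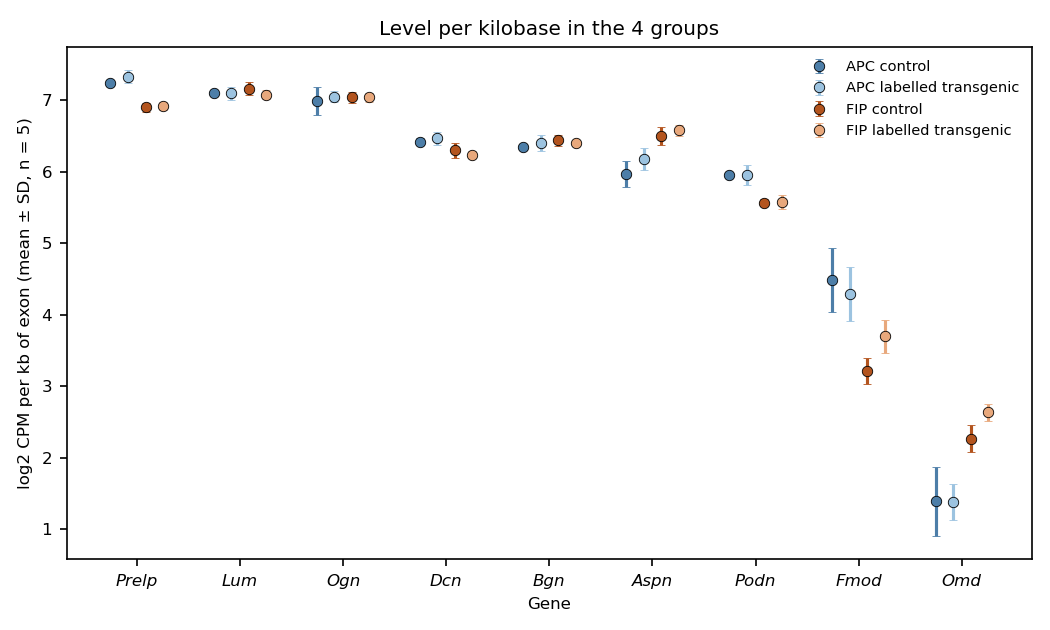
Level of the 9 detected genes in log2 CPM per kb of exon (vertical axis) in the 4 groups, as mean and SD of 5 libraries. Prelp, Lum and Ogn lie near 7, Fmod and Omd lie lowest, and the FIP and APC points separate for Prelp, Podn, Aspn, Fmod and Omd.

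Control FIPs were set against control APCs to ask how the fibro-inflammatory and the adipogenic population differ in these genes. Fmod, Prelp, Podn and Dcn were lower in FIPs, and Omd and Aspn were higher. The differences ran from 2.42-fold lower for Fmod to 1.85-fold higher for Omd, and Bgn, Lum and Ogn did not pass. Thus 6 of 9 members passed in limma at an adjusted p of 0.05, 4 lower and 2 higher, where 47.5% of all tested genes passed (27.9% lower and 19.6% higher). The share is near that background, so the number of calls by itself says nothing particular about the family. The median difference was 0.05 log2 units over the 9 members and −0.06 over all tested genes. For 4 members the 2 groups did not overlap, against 31.4% of all genes.

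Fmod encodes fibromodulin, which competes with lumican for type I collagen and directs collagen crosslinking. Its log2 CPM was 5.10, 4.72, 5.01, 4.77 and 5.09 in the control FIPs and 6.98, 6.16, 6.17, 5.81 and 5.95 in the control APCs. All FIP libraries lay below all APC libraries, and replicate 1 of the APCs lay well above the other 4. The difference was −1.28 log2 units (SE 0.19, 95% confidence interval −1.67 to −0.89, limma adjusted p = 1.21e-05). Without that replicate of the APCs and its counterpart labelled transgenic it was −1.08 (SE 0.12). Those libraries were left out because of their Fmod values, so the smaller error follows from the choice and no p is given.

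Prelp encodes a heparin-binding protein that links basement membranes to collagen. It stood at 8.75, 8.77, 8.85, 8.73 and 8.69 log2 CPM in control FIPs and 9.14, 9.13, 9.05, 9.10 and 9.05 in control APCs. The groups were separate by more than the range of either, although the difference was only −0.34 (SE 0.04, 95% confidence interval −0.42 to −0.25, limma adjusted p = 1.43e-06), 1.26-fold lower. Podn encodes podocan, a member of a separate class of the family that binds type I collagen and is known from vascular smooth muscle. Its values were 7.69, 7.63, 7.74, 7.60 and 7.68 in control FIPs and 8.08, 8.05, 8.07, 8.06 and 8.01 in control APCs, again with no overlap (−0.39, SE 0.06, limma adjusted p = 8.94e-06). Dcn stood at 8.90, 8.85, 8.98, 8.75 and 8.76 in control FIPs and 9.04, 8.98, 8.93, 8.96 and 8.93 in control APCs, and the ranges overlapped. Its difference of −0.12 (SE 0.05) passed narrowly (limma adjusted p = 0.0357). The call was lost in 6 of 20 fits that left out 1 library, and with libraries centred on their medians (−0.08, adjusted p = 0.357). It was also lost without replicate 1 of both APC groups (−0.10, limma adjusted p = 0.0911).

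Aspn and Omd, neighbours on chromosome 13, were the members that were higher in FIPs. Aspn encodes asporin, which binds collagen and TGF-beta and carries a run of aspartates. It stood at 7.72, 7.73, 7.87, 7.81 and 7.53 log2 CPM in control FIPs and 6.95, 7.32, 7.32, 7.36 and 7.10 in control APCs, with every FIP library above every APC library. The difference was 0.52 (SE 0.08, 95% confidence interval 0.35 to 0.69, limma adjusted p = 2.9e-05). Omd encodes osteomodulin, an acidic protein best known from bone and tooth. It stood at 3.40, 3.55, 3.72, 3.30 and 3.25 in control FIPs and 3.38, 2.54, 2.40, 2.12 and 2.36 in control APCs. Only replicate 1 of the APCs reached into the FIP range, and the difference was 0.88 (SE 0.18, 95% confidence interval 0.51 to 1.26, limma adjusted p = 0.000406). Without replicate 1 of both APC groups it was 1.09.

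Ogn, the remaining gene of that cluster, did not follow its neighbours. It encodes osteoglycin, which regulates fibril growth and carries keratan sulfate in some tissues. Its range was 8.34 to 8.54 log2 CPM in control FIPs and 8.16 to 8.65 in control APCs (difference 0.05, 95% confidence interval −0.09 to 0.19, limma adjusted p = 0.583). Bgn ranged from 8.95 to 9.15 in control FIPs and from 8.91 to 9.01 in control APCs (0.09, interval −0.01 to 0.18, adjusted p = 0.13). Lum ranged from 8.36 to 8.61 and from 8.37 to 8.43 (0.07, interval −0.03 to 0.16, adjusted p = 0.243). The intervals of these 3 genes reach from −0.09 to 0.19 log2 units.

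**Figure D2:**
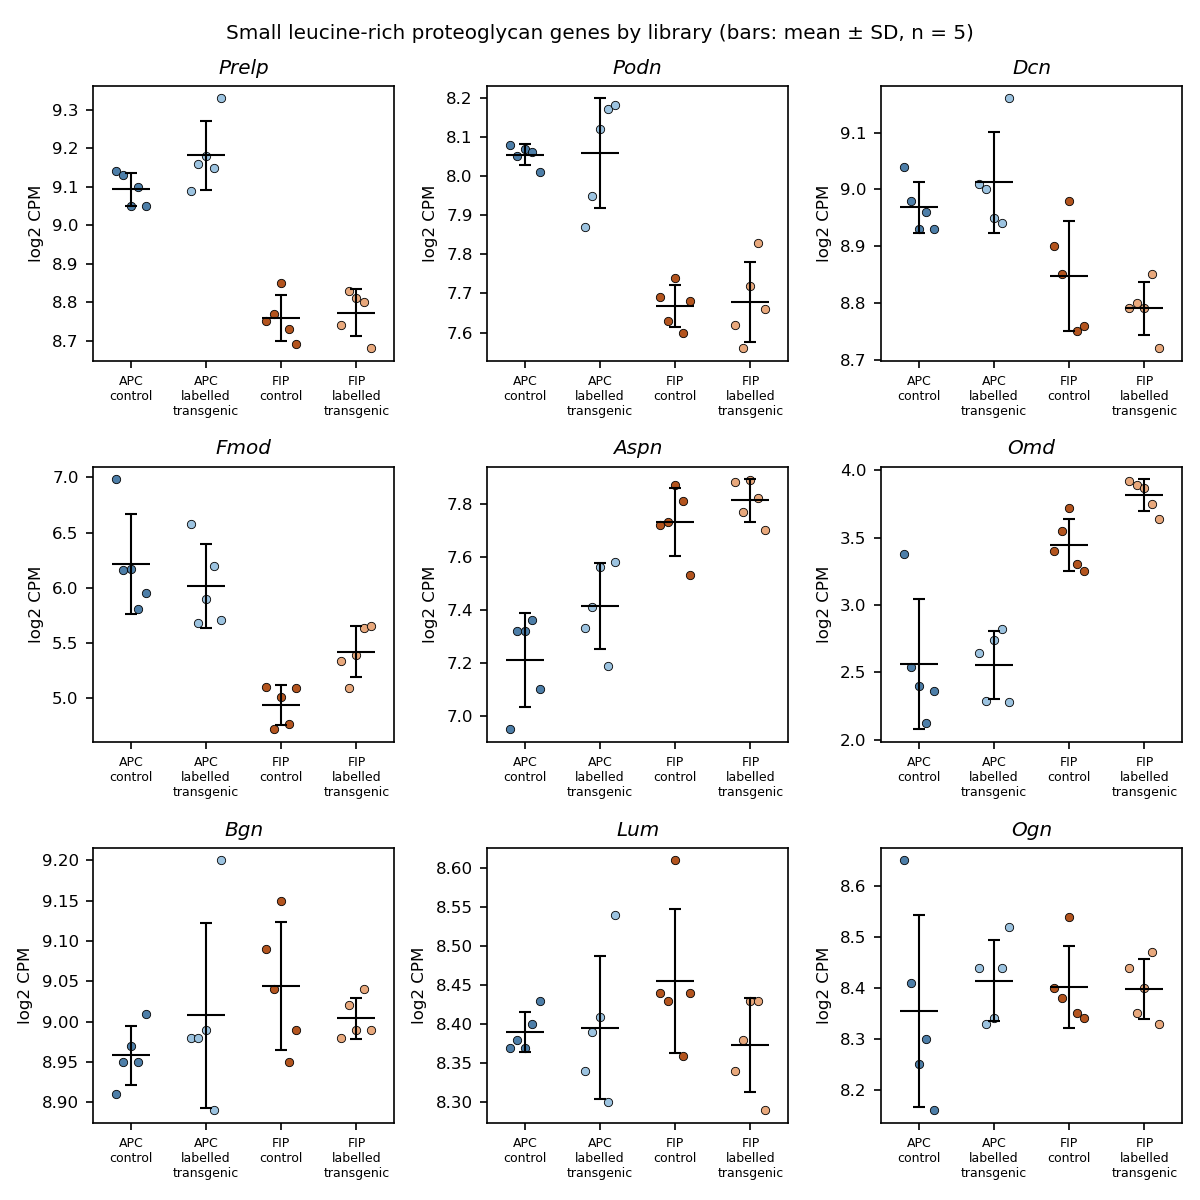
Log2 CPM (vertical axis, scaled for each gene) of the 9 detected genes in each library of the 4 groups; points are libraries and bars the mean and SD of 5. Prelp and Podn are lower and Aspn is higher in FIPs of both genotypes without overlap, whereas Bgn, Lum and Ogn overlap.

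Transcripts of other cell types moved in the same comparison. In control FIPs 12 of 12 mural cell markers, 9 of 10 endothelial markers, 6 of 6 erythroid, 6 of 6 adipocyte and 7 of 8 mesothelial markers were lower than in control APCs. The remaining endothelial marker was higher. The summed level of the mural list was 8.85 to 8.97 log2 CPM in control FIPs and 9.73 to 10.20 in control APCs, and no gene of these lists was at 0 throughout. That of the erythroid list was 8.82 to 9.03 and 9.65 to 10.59, of the adipocyte list 9.35 to 9.54 and 9.78 to 10.33, and of the endothelial list 9.20 to 9.60 and 9.43 to 9.78. The endothelial sums overlapped, and so did the mesothelial sums, at 7.56 to 8.08 in FIPs and 7.90 to 8.08 in APCs. Of 12 macrophage markers 1 was lower, and of 9 markers of committed preadipocytes 6 were lower and 2 higher. The part of these transcripts in the lower levels of Fmod, Prelp, Podn and Dcn was not tested. Of 10 tendon and cartilage markers, Mkx, Acan, Col2a1 and Col10a1 were at 0 in all libraries. Of the 6 tested, Cilp (2.25) was higher and Chad (−1.13) was lower. Tnmd was listed at 0 in all 10 APC libraries, at 0.00 to 0.66 log2 CPM in control FIPs and at 0.60 to 1.52 in FIPs labelled transgenic. It reached the filter through FIP libraries alone, and the constant zeros enter its pooled variance. It is therefore not counted here as higher, and no p is given for it. In bulk samples of this kind, fewer cells of a type and less RNA per cell cannot be told apart.

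In the mice labelled transgenic the same comparison of FIPs with APCs was made on separate libraries. Again 6 of 9 members passed, Prelp, Podn, Dcn and Fmod lower and Aspn and Omd higher, where 41.7% of all tested genes passed (19% lower and 22.7% higher). With libraries centred on their medians the share of higher genes among all calls went from 54.5% to 44.3%, while these 6 members kept their direction and their calls. The median difference was −0.02 over the 9 members and −0.01 over all tested genes. The 2 groups did not overlap for 6 of the 9 members, the same that passed, against 29% of all tested genes.

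Prelp stood at 8.74, 8.83, 8.81, 8.80 and 8.68 log2 CPM in these FIPs and 9.09, 9.16, 9.18, 9.15 and 9.33 in these APCs, and its difference was −0.41 (SE 0.04, limma adjusted p = 7.75e-08). Podn stood at 7.62, 7.56, 7.72, 7.83 and 7.66 and 7.87, 7.95, 8.12, 8.17 and 8.18, a difference of −0.38 (SE 0.06, adjusted p = 9.58e-06). The narrow gap of Podn lay between 7.83 in the highest FIP library and 7.87 in the lowest APC library. Dcn ranged from 8.72 to 8.85 in FIPs and from 8.94 to 9.16 in APCs, a difference of −0.22 (SE 0.05, adjusted p = 0.00047) that stayed past the threshold in each alternative run.

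Fmod stood at 5.34, 5.09, 5.39, 5.64 and 5.65 in FIPs labelled transgenic and 6.58, 5.68, 5.90, 6.20 and 5.71 in the corresponding APCs. The highest FIP library, at 5.65, lay just under the lowest APC library, at 5.68. The difference was −0.59 (SE 0.19, 95% confidence interval −0.98 to −0.20, limma adjusted p = 0.0144), and −0.45 without replicate 1 of both APC groups. Aspn stood at 7.88, 7.77, 7.89, 7.82 and 7.70 and 7.33, 7.41, 7.56, 7.19 and 7.58, 0.40 higher in FIPs (SE 0.08, adjusted p = 0.000491). Omd stood at 3.92, 3.89, 3.87, 3.75 and 3.64 and 2.64, 2.29, 2.74, 2.82 and 2.28, 1.26 higher (SE 0.18, 95% confidence interval 0.89 to 1.63, adjusted p = 6.81e-06), which is 2.39-fold. Bgn (0.00, interval −0.10 to 0.09), Lum (−0.02, −0.12 to 0.07) and Ogn (−0.02, −0.15 to 0.12) did not pass. In this comparison 8 of 12 mural markers and 3 of 6 erythroid markers were lower. Of 10 endothelial markers 1 was higher and none lower, and of 8 mesothelial markers 1 was lower and 1 higher. Of 6 adipocyte markers 2 were lower. Set beside the control mice, the differences were −0.41 and −0.34 for Prelp, −0.38 and −0.39 for Podn, −0.22 and −0.12 for Dcn, and −0.59 and −1.28 for Fmod. The part of the marker transcripts in these values was not tested.

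**Figure D3:**
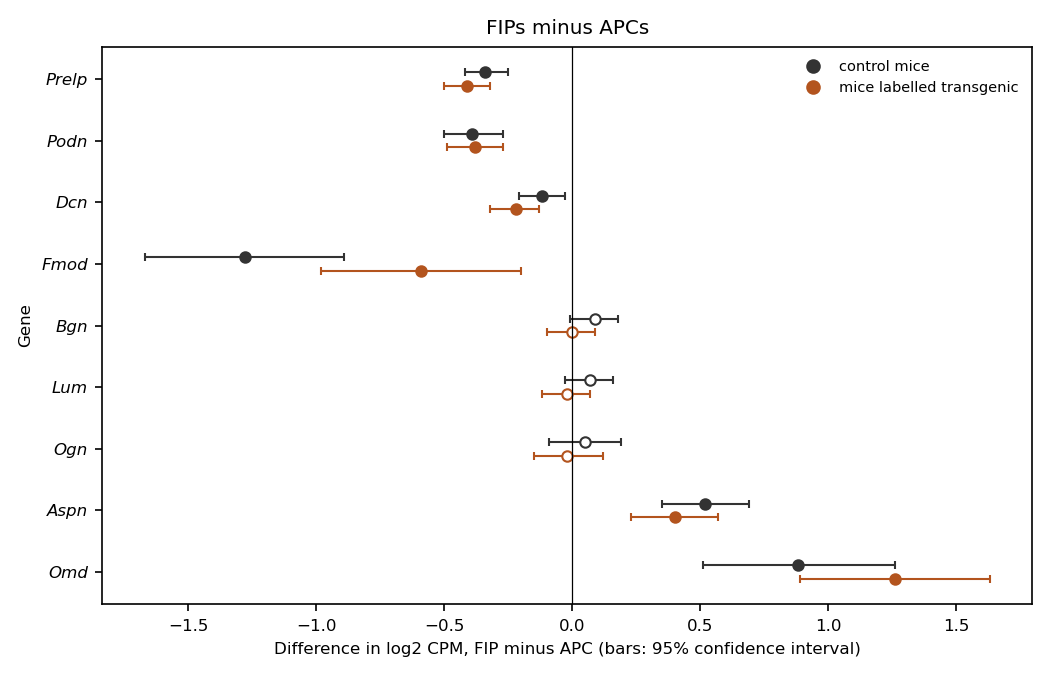
Difference in log2 CPM between FIPs and APCs (horizontal axis, FIP minus APC) with its 95% confidence interval for 9 genes in control mice and mice labelled transgenic; filled points passed at an adjusted p of 0.05 and open points did not. Fmod runs from −1.28 in controls to −0.59 in mice labelled transgenic, and Omd from 0.88 to 1.26.

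The comparison of genotypes asked whether these matrix genes differed in the FIPs or the APCs of mice of the Mural-Zfp423 line. None of the 9 members passed in FIPs, where limma called 65 genes (0.373%, with 0.241% higher and 0.132% lower). There 1 member had an unadjusted p under 0.05, beside 10.6% of all tested genes. None passed in APCs, where limma called 1396 genes (8.01%, with 2.1% higher and 5.91% lower). There 2 members had an unadjusted p under 0.05, beside 25.5% of all tested genes. The median difference over the members was 0.01 in FIPs and 0.04 in APCs, beside 0.01 and −0.03 over all tested genes. No member had groups without overlap, against 2.89% of all genes in FIPs and 2.92% in APCs. With libraries centred on their medians, the higher share of all calls went from 64.6% to 51.9% in FIPs and from 26.2% to 48.5% in APCs. With 1 library left out, the counts over all genes ran from 9 to 125 in FIPs and from 181 to 2849 in APCs, and 0 passed when the APC groups were fitted alone.

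The members with the largest values between genotypes in FIPs were Fmod and Omd. Fmod was 0.48 log2 units higher in the libraries labelled transgenic (95% confidence interval 0.09 to 0.87, limma adjusted p = 0.329), and the highest controls, at 5.09 and 5.10, overlapped only with the lowest library labelled transgenic, at 5.09. Omd differed by 0.37 (interval 0.00 to 0.74, adjusted p = 0.474), with 3.25 to 3.72 in controls and 3.64 to 3.92 in the libraries labelled transgenic. The other 7 members differed by −0.08 to 0.08. In the same comparison, 12 macrophage markers had a median of −0.47 and 10 endothelial markers a median of 0.33, and none of either list passed.

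In APCs, Aspn was 0.20 higher in the libraries labelled transgenic (95% confidence interval 0.03 to 0.38, limma adjusted p = 0.122) and Prelp 0.09 (interval 0.00 to 0.18, adjusted p = 0.191). Fmod differed by −0.20 (interval −0.59 to 0.19, adjusted p = 0.547), and Dcn, Bgn, Lum, Ogn, Omd and Podn differed by −0.01 to 0.06. Macrophage markers were lower for 8 of 12 genes here and erythroid markers for 6 of 6, with summed levels of 7.60 to 8.30 against 8.22 to 8.97 log2 CPM and of 8.83 to 10.03 against 9.65 to 10.59. Also lower were 5 of 9 interstitial progenitor markers (summed 8.08 to 8.27 against 8.38 to 8.54), 3 of 6 adipocyte markers and 2 of 8 mesothelial markers. Of the gate genes, Ly6c1 (−0.53), Ly6c2 (−0.53) and Cd9 (−0.65), which are high in FIPs, were lower in APCs labelled transgenic. Of 12 mural and 10 endothelial markers 1 each was lower. The part of these transcripts in the values of the members was not tested.

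Whether the genotype difference depended on the cell type was tested by the interaction term. Limma called 0 of 17435 genes (0%), with 2388 (13.7%) at an unadjusted p under 0.05, among them 1 of the members. That member was Fmod, with 0.68 log2 units (SE 0.26, 95% confidence interval 0.13 to 1.23, adjusted p = 0.276). Its difference between FIPs and APCs was therefore not shown to differ between genotypes. Without replicate 1 of both APC groups it was 0.63 (SE 0.18, limma adjusted p = 0.0421). As those libraries were chosen by their Fmod values, this p is no independent test, and 957 genes passed there. The other members lay between −0.12 and 0.38, with adjusted p-values of 0.485 to 0.983.

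**Figure D4:**
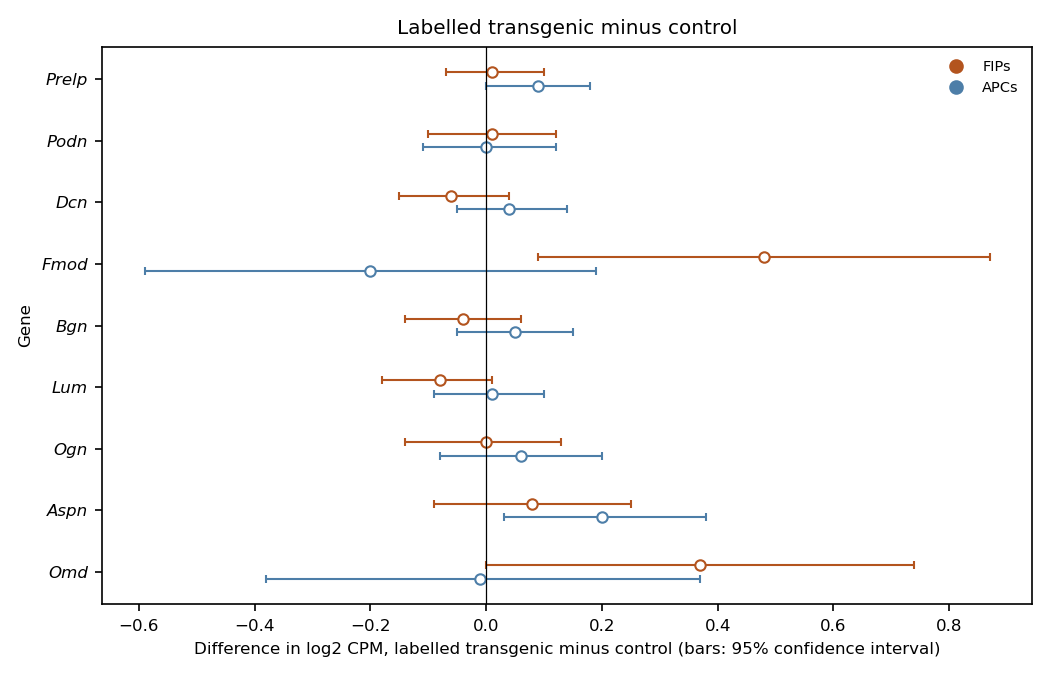
Difference in log2 CPM between libraries labelled transgenic and controls (horizontal axis) with its 95% confidence interval, for 9 genes in FIPs and in APCs; all points are open because none passed. Fmod in FIPs lies at 0.48, and the intervals of Bgn, Lum, Dcn, Ogn and Podn stay within 0.20 of 0 in either population.

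Of 8 further genes of the family, listed beside the members, 7 were tested and 5 passed between control FIPs and control APCs, 2 higher and 3 lower, beside 47.5% of all tested genes (19.6% higher and 27.9% lower). The largest difference was that of Epyc, which encodes epiphycan, a proteoglycan of growth cartilage, and lies 30.4 kb beyond Kera on chromosome 10. It stood at 3.40, 3.16, 3.05, 3.19 and 4.06 log2 CPM in control FIPs, and was listed at 0 in 4 of 5 control APCs and at 0.50 in the other. In the libraries labelled transgenic it stood at 3.04 to 3.71 in FIPs, and was listed at 0 in 3 of 5 APCs, with at most 0.38. FIPs and APCs thus did not overlap in either genotype, and no fold is given because values of 1 CPM or less are listed as 0. Epyc reached the filter through its FIP libraries, and its zeros in APCs enter the pooled variance. Its call in the count above is therefore no independent result. Tsku, which encodes tsukushi, a secreted inhibitor of BMP and Wnt signals, was 7.03 ± 0.14 in control FIPs and 5.48 ± 0.15 in control APCs (1.56, SE 0.07, adjusted p = 6.5e-13). Among these genes it was also the one that passed between genotypes, −0.33 in APCs (adjusted p = 0.0191).

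Optc, Chad and Ecm2 lay the other way. Optc encodes opticin of the vitreous and lies 2.3 kb from Prelp. It stood at 0.00 to 0.56 log2 CPM in control FIPs and 0.77 to 1.28 in control APCs (−0.82, limma adjusted p = 0.000471). Chad, the cartilage protein chondroadherin, stood at 0.00 to 0.43 and 0.50 to 2.15 (−1.13, adjusted p = 0.000298). These levels are near 1 CPM, where the table stops, so their differences are understated. Ecm2, which lies 11.7 kb before Aspn, differed by −0.25 (adjusted p = 0.00968) with overlapping groups. Chadl and Podnl1 did not pass, and Nyx, the nyctalopin gene of the retina, was above 0 in 1 library and was not tested.

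**Figure D5:**
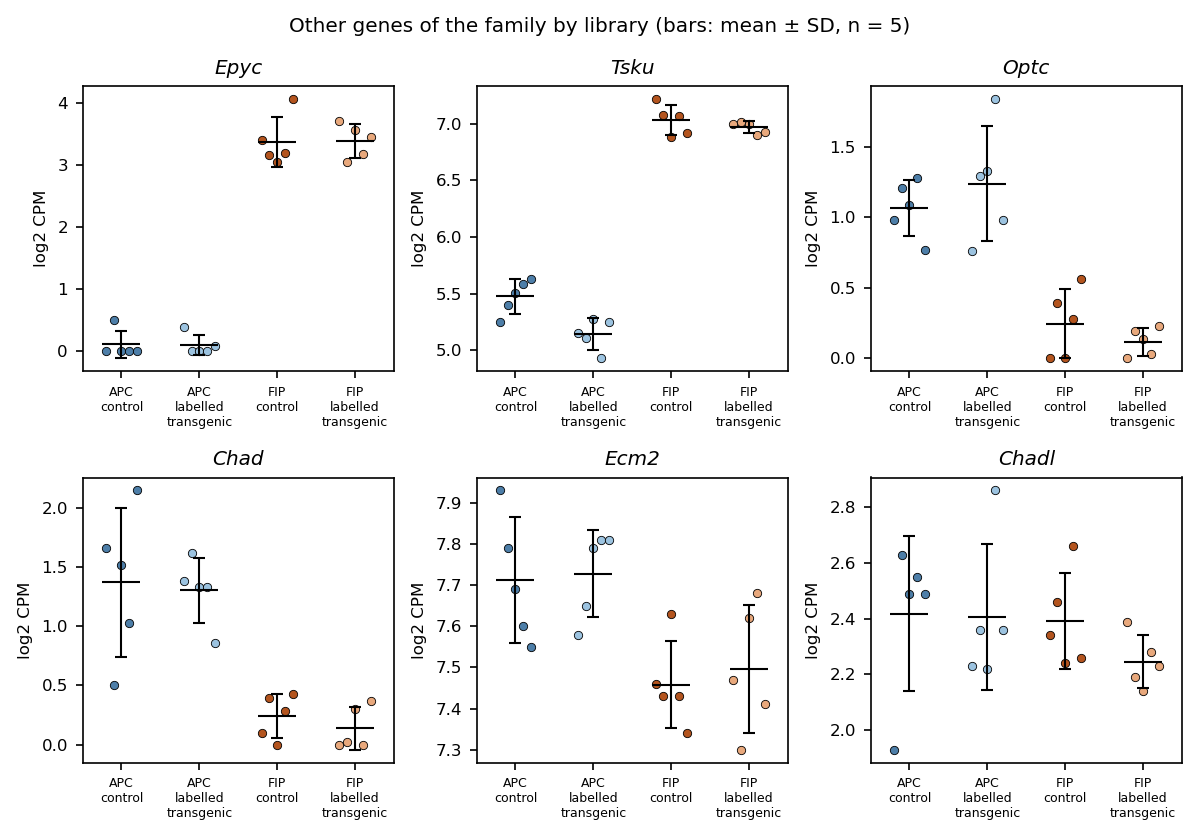
Log2 CPM (vertical axis, scaled for each gene) of 6 further genes of the family in each library of the 4 groups; points are libraries and bars the mean and SD of 5. Epyc and Tsku are higher in all FIP libraries, Optc and Chad are lower there, and a value of 0 stands for 1 CPM or less.

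Neighbouring members and their flanking genes differed in mixed directions on chromosomes 10 and 13, while those that passed on chromosome 1 and around Podn were all lower in control FIPs. On chromosome 10 Dcn was lower in control FIPs, Lum did not pass, Kera was at 0 and Epyc was higher, while the next gene before Dcn, Btg1, 856.8 kb away, differed by −0.27 (limma adjusted p = 0.000152). On chromosome 13 Ecm2 was lower, Aspn and Omd were higher, Ogn and the following gene Nol8 (−0.01) did not pass, and the overlapping Cenpp differed by 0.59 (adjusted p = 0.0489). On chromosome 1 Optc, Prelp, Fmod and the growth inhibitor gene Btg2 (−0.15, adjusted p = 0.012) were all lower. Around Podn, Scp2 (−0.50) and Echdc2 (−0.80) were lower and Slc1a7 did not pass. Of the genes beside Bgn, Haus7 did not pass (0.04) and Atp2b3 was listed at 0 in all 20 libraries.

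The genes with the most similar profiles were found by the root mean square difference over the 20 libraries, after each gene was centred on its own mean. Bgn lay closest to the collagen genes Col1a1 (0.03 log2 units) and Col1a2 and the basement membrane gene Nid1 (0.031 each). Lum lay closest to Col1a2 (0.033), Col5a2 and the collagen-binding Sparc (0.034 each), and Bgn lay at rank 10 from it. Fmod lay closest to Nexn (0.203), the growth factor Fgf10 (0.24) and the transmembrane collagen Col23a1 (0.256). Omd lay closest to Xpnpep2 (0.235), Hsp25-ps1 (0.247) and Sytl2 (0.253), and Aspn to Pxdc1 (0.083), Arhgap42 (0.12) and Cercam (0.123). Dcn lay closest to Rhob (0.03), Jun (0.031) and Cst3 (0.033). Prelp lay closest to Irs2 (0.046), Dpep1 (0.049) and Dnajb1 (0.054), Podn to Leng8, Sept8 and Srsf5 (0.064 to 0.069), and Ogn to Plpp3, Tmem65 and Ace (0.053 to 0.059). From Podn, Bgn and Prelp the nearest other member lay at ranks 12, 13 and 59. From Ogn, Dcn, Fmod, Omd and Aspn it lay at ranks 689, 817, 869, 952 and 2153. The measure is not scaled by the spread of a gene, so genes that vary little lie close to each other. These are descriptions, and all libraries of a group share their sort and genotype.

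Collagens and other matrix proteins that the family binds made up a list of 14 genes. In control FIPs 4 were higher and 3 lower than in control APCs, with a median difference of 0.08. Their count, 7 of 14, and those of the lists that follow are to be read beside the 47.5% of all tested genes that passed in this comparison. Col14a1 (1.81, limma adjusted p = 1.25e-13) and Col12a1 (1.99, adjusted p = 2.52e-10), collagens that sit on the surface of fibrils, were higher, as were fibronectin Fn1 (0.49) and elastin Eln (0.41). The main fibril collagens did not pass: Col1a1 differed by 0.08, Col1a2 by 0.07 and Col3a1 by 0.09. None of the 14 passed between genotypes in either population.

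Among the enzymes that finish these proteins the share that passed, 11 of 21 and 5 of 10, was near that of all tested genes. Of 21 tested genes of chondroitin and dermatan sulfate synthesis 7 were higher and 4 lower in control FIPs (median 0.02). Csgalnact1, which starts chondroitin chains, differed by −0.79 (limma adjusted p = 6.63e-11) and the sulfotransferase Chst15 by −0.91. The dermatan epimerase-like Dsel differed by 0.45, and the sulfotransferase Chst7 stood at 4.09 against 2.55 log2 CPM (1.54, adjusted p = 1.81e-06). Of 10 tested genes of keratan sulfate synthesis and sulfate supply 4 were higher and 1 lower (median 0.10). Papss1, which makes the sulfate donor, differed by 0.18, Chst2 by 0.45, B4galt4 by 0.38 and B3gnt2 by −0.54. Between genotypes in APCs, Chst11 (−0.69, adjusted p = 0.0453) and the keratan sulfotransferase Chst1 (−0.80, adjusted p = 0.0189) were lower. These calls, that of Tsku and those in the lists that follow are to be read beside the 8.01% of all tested genes that passed there. That count ran from 181 to 2849 with 1 library left out and was 0 when the APC groups were fitted alone.

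Of 7 genes for propeptide cleavage and tyrosine sulfation 3 were higher and 1 lower in control FIPs. Bmp1, the protease that removes the propeptide of biglycan and cuts procollagen, differed by 0.24 (limma adjusted p = 0.000493), its enhancer Pcolce2 by 1.03 and the tyrosine sulfotransferase Tpst2 by 0.25. The related protease Tll2 was 3.85 in control FIPs and 5.87 in control APCs (−2.02, adjusted p = 1.43e-07), and it was higher by 0.72 in APCs labelled transgenic (adjusted p = 0.0446). Among 6 tested proteases that degrade these proteins, Mmp3 passed (0.89, adjusted p = 0.00127).

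Of 12 signalling partners 4 were higher and 4 lower in control FIPs. The biglycan receptor Tlr2 stood at 5.59 log2 CPM in control FIPs and 4.51 in control APCs (1.08, limma adjusted p = 1.13e-07). Tgfb2 (0.95) and Tgfb3 (0.41), ligands of the TGF-beta family that decorin and asporin bind, were higher, and the decorin receptor Egfr was lower (−0.32). In APCs labelled transgenic Met (−0.78, adjusted p = 0.028) and Kdr (−0.51, adjusted p = 0.0335) were lower; Kdr is also a marker of endothelial cells.

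Other proteoglycans were listed for comparison with the family. Of 10 tested extracellular ones 3 were higher and 5 lower in control FIPs (median −0.14). The joint lubricant Prg4 (2.67, limma adjusted p = 1.24e-09) and versican, Vcan (0.46), were higher, and Col15a1 (−0.40) and Spock2 (−0.65) lower. Of 11 tested cell surface ones 3 were higher and 3 lower (median −0.01), among them the glypicans Gpc6 (1.12) and Gpc4 (−0.65), the mural proteoglycan Cspg4 (−0.86) and the syndecan Sdc4 (−0.24). Between genotypes Gpc4 was higher in FIPs (0.28, adjusted p = 0.0261), and in APCs Sdc2 was higher (0.17) and Sdc1 (−0.54) and Prg4 (−0.78) lower.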

How the data were processed

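The table the authors deposited holds log2 CPM values, rounded to 2 decimals, of 54304 genes in 20 libraries; where CPM did not exceed 1 it lists 0. Per the submitters' processing notes, Trim Galore 0.4.1, HISAT2 2.0.1, featureCounts 1.4.6 and DESeq2 1.6.3 were used with GRCm38; the annotation release was not given in the sources used here. Depth was estimated from the step of 1 read in the lowest values; these were whole reads within rounding for 69 to 81.1% of values, short of nearly all, so no count model was run.

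Genes above 0 in at least 5 libraries (17435) were fitted in limma 3.58.1 (R 4.3.3) with 1 mean per group, a trend of variance on level and 16 residual degrees of freedom; p-values were adjusted over all genes by the Benjamini-Hochberg method at 0.05. The fit was run on simulated data with known changes. Differences are on the log2 scale and understate changes of genes near 1 CPM. Libraries were taken as independent although FIP and APC pools share mice.

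The members and the 20 further lists were chosen with earlier results of these data known. Named genes are all members, up to 4 list genes with the smallest adjusted p in control FIPs against control APCs, list genes that passed between genotypes (Tnmd by its levels only; of marker lists, counts and ranges are given, with a few genes named for the sort and the tendon list), the 3 nearest profiles, and flanking genes. Collagen genes that did not pass, and list genes described as not passing, were named after their values were seen. Alternatives were another pseudocount (1 or 0.1), filter, scaling, variance model or set of groups, the replicate block, and each library left out. Leaving out replicate 1 of both APC groups was added after the data were seen. Positions and exon lengths are from GENCODE M21, which matched 54276 genes, and promoters from RefSeq (GRCm38.p6).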

Additional observations from a re-analysis of the deposited data

How the results depend on the processing

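Of the member calls between FIPs and APCs, those of Fmod, Prelp, Podn, Aspn and Omd passed in both genotypes in every alternative, and Dcn did in mice labelled transgenic. In control mice the number of members past the threshold was 5 to 7 with 1 library left out and 5 with centring or with the replicate block (Dcn, −0.12, adjusted p = 0.0521). Dcn had adjusted p-values of 0.0534 to 0.106 when replicate 1, 2 or 4 of the control APCs or 2, 4 or 5 of the control FIPs was left out. Bgn passed (adjusted p = 0.0478) once the APC pool labelled transgenic with number 5 was left out. The block changed no other member's call. The labels do not tie replicate numbers to mice, so the numbers were not used as pairs. Same-numbered FIPs and APCs of 1 genotype correlated at 0.04 to 0.33 in their deviations, not all above 0.1, and 5 of 10 correlated best with their own number, a hint from the data and not from the design.

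Between genotypes and in the interaction 0 members passed in each setting tried, except that 1 (Fmod, 0.63) passed in the interaction without replicate 1 of both APC groups. Those libraries were chosen by their Fmod values, so that pass is no independent result, and 957 genes passed there. Differences near 0 changed sign. With quantile normalization these were Ogn between FIPs and APCs labelled transgenic (0.01), Bgn between genotypes in FIPs (0.01), Dcn (−0.02), Bgn (−0.01), Lum (−0.04) and Omd (0.21) in APCs, and Bgn in the interaction (0.02). With centring they were Prelp and Podn in FIPs (−0.01 each), Omd in APCs (0.06) and Podn in the interaction (−0.08), and with array weights Omd in APCs (0.10). With libraries left out, Lum and Ogn between FIPs and APCs labelled transgenic ranged over −0.05 to 0.01 and −0.04 to 0.01, Podn in FIPs over −0.03 to 0.04, Omd in APCs over −0.12 to 0.20, Lum there over −0.03 to 0.03, and Podn in the interaction over −0.05 to 0.04. The cause was not tested.

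Over all genes, calls between genotypes ran from 9 to 125 in FIPs as single libraries were left out (9 and 125 for numbers 4 and 5 labelled transgenic). Numbers 1 and 3 of that group, 2 to 5 of the control FIPs and 1 of the control APCs also moved this count by over 1.5 times. In APCs the calls ran from 181 (control 5) to 2849 (labelled transgenic 1), and each APC pool except control 2 moved them by over 1.5 times. Other settings gave 36 to 271 and 0 to 2253, the 0 with only the APC groups fitted; the replicate block gave 101 in FIPs. Interaction calls were 331 when the APC pool labelled transgenic with number 1 was left out, 70 for control APC 1, 32 for FIP labelled transgenic 5 and 0 to 3 for the others, and 176 with array weights. The precision is limited by 5 libraries per group and, for Kera, Optc, Chad and Epyc, by the lower limit of 1 CPM.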
